A study of Mus musculus with 8 samples.

Results

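The aryl hydrocarbon receptor (AHR) genes described here are 7 genes chosen by symbol: the receptor *Ahr*, its partner *Arnt*, the enzyme genes *Cyp1a1*, *Cyp1a2* and *Cyp1b1*, and the repressor genes *Ahrr* and *Tiparp*. They are 7 of the 55416 genes in the count files. The symbols were listed with the lung levels of these mice already known, so the levels and fold changes of the 7 genes are a description and carry no test.

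AHR is a transcription factor that waits in the cytosol, bound to heat shock protein 90 and co-chaperones. After it binds a planar aromatic compound or a ligand made from tryptophan, it enters the nucleus, pairs with ARNT and binds xenobiotic response elements near its targets, of which *Cyp1a1* is the classic one. In lung, endothelium and airway epithelium are known sites of CYP1A1 induction, and AHRR and TIPARP restrain the receptor in a feedback loop.

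Lung tissue from 1 side of female C57BL/6J mice (C57BL/6 in the labels), aged 6 to 8 weeks, was taken about 24 h after injection and sequenced for RNA. The 3 control mice (mice 1, 2 and 4) received dimethyl sulfoxide (DMSO) into the tail vein and then saline into the peritoneum, and the 3 LPS mice (mice 1, 6 and 7) received bacterial lipopolysaccharide at 35 mg/kg. The 2 dual-treated mice (mice 2 and 5) received YW3-56, an inhibitor of protein arginine deiminases, at 10 mg/kg in DMSO shortly before the same dose of LPS. The methods name no DMSO for the LPS mice, so drug and vehicle cannot be told apart between LPS and dual-treated lungs. Nor can LPS and the lack of vehicle be told apart between LPS and control lungs. The methods also name no group given YW3-56 alone. They name 3 mice per group for sequencing, whereas the data and the paper's figure legend hold 2 dual-treated mice.

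Total counts per mouse ran from 19061949 to 20908608. Levels are given as CPM, counts brought to a common library size with TMM scaling, and 3 counts, used as the floor for a gene at 0, came to between 0.132 and 0.178 CPM. Floors and intervals cover counting error only. The lung label was checked against markers: the surfactant gene *Sftpc* was at 8322 CPM or more, the club cell gene *Scgb1a1* at 22675 CPM or more and the endothelial gene *Cdh5* at 510 CPM or more in all 8 mice.

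LPS mice 6 and 7 stood apart from the rest before any comparison. Summed over 10 squamous epithelium markers, the level was 5.58, 10.8 and 11.2 CPM in control mice 1, 2 and 4, 0.89, 788 and 2118 CPM in LPS mice 1, 6 and 7, and 9.85 and 23.8 CPM in dual-treated mice 2 and 5. Over the 8 mice the highest mean CPM of these genes was that of the keratin gene *Krt13* (in control and dual-treated lungs that of *Krt14*), with 286 and 887 CPM in LPS mice 6 and 7 and at most 0.878 CPM in the other mice. The sum over 8 skeletal muscle markers was 10.5, 19.4 and 14 CPM in control, 17, 289 and 683 CPM in LPS and 5.45 and 7.9 CPM in dual-treated mice. The creatine kinase gene *Ckm* had the highest mean CPM over the 8 mice and in control, *Myh1* in LPS and *Mylpf* in dual-treated lungs. No gene of either list was at 0 in every mouse. In LPS against control lungs, 8 of 9 tested squamous genes and 7 of 7 tested muscle genes rose. In dual-treated against control lungs edgeR's quasi-likelihood test called 0 of either list, with 0 also at an unadjusted p under 0.05 and 0 by DESeq2, and against LPS 7 squamous and 7 muscle genes were lower. Other settings called some against control: 1 squamous gene higher, 1 lower and 2 muscle genes lower with no filter (10 and 8 tested) or with only the compared groups (4 and 5 tested), and 2 squamous genes higher, 1 lower and 1 muscle gene lower without LPS mouse 1. The 8 squamous rises with LPS became 3 of 5 tested without LPS mouse 6 or 7 and 1 of 2 tested with only the compared groups, so that fewer genes were tested as well as called. With at least 10 counts asked for in every library, no squamous gene was left to test. Against LPS the 7 lower squamous genes became 3 of 5 tested without LPS mouse 6 or 7 and 3 of 10 tested without either dual-treated mouse, and the 7 lower muscle genes became 4 without either dual-treated mouse. Without LPS mice 6 and 7, which leaves 1 LPS mouse that is assumed to vary like the other groups, 5 genes of each list were tested, of which none was called higher with LPS in the edgeR fit, and 2 squamous genes fell. In dual-treated lungs against that mouse 2 squamous genes were higher, and 2 muscle genes were lower and 1 higher. Their part in the results was not tested.

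A gene was called where edgeR's quasi-likelihood test gave a Benjamini-Hochberg adjusted p-value under 0.05 over 18560 tested genes. Of the tested genes, 32.6% were called higher and 33.9% lower in LPS against control, 9.13% higher and 7.02% lower in dual-treated against control, and 31.7% higher and 27.4% lower in dual-treated against LPS lungs. Beside these shares, 2 of the 5 tested AHR genes were past the same rule as higher and 2 as lower with LPS, 1 and 1 with the dual treatment, and 2 and 2 between dual-treated and LPS lungs. The genes were chosen on these contrasts, so nothing is read from those counts. The median log2 fold change (log2FC) of all tested genes was -0.01, 0.00 and 0.06 in the same order of comparisons. Scaling by library size alone shifted the log2FC of LPS against control by a median of -0.29 and that of dual-treated against LPS by 0.33. It also moved the share of higher genes among the called ones from 49% to 35.6% and from 53.6% to 71%. The comparisons share mice, so their values for a gene are not independent of one another.

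*Cyp1a1* (ENSMUSG00000032315, chr9:57595211-57611107, plus strand, GRCm39) encodes the monooxygenase that oxidizes polycyclic aromatic hydrocarbons. Its counts were 331, 750 and 801 in control mice 1, 2 and 4, only 2, 2 and 7 in LPS mice 1, 6 and 7, and 32 and 46 in dual-treated mice 2 and 5. As levels these were 16.2, 35.2 and 36.8 CPM, then 0.119, 0.116 and 0.391 CPM, then 1.45 and 2.02 CPM. The 3 groups did not overlap: control was the highest, dual-treated lay between and LPS was the lowest, with LPS mice 1 and 6 under the 3-count floor. The mean was 29.4 ± 11.5 CPM in control (SD, n = 3), 0.208 ± 0.158 CPM in LPS (SD, n = 3) and 1.74 ± 0.401 CPM in dual-treated lungs (SD, n = 2), so that LPS lungs held 0.708% and dual-treated lungs 5.9% of the control mean.

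The fitted log2FC of *Cyp1a1* was -7.08 with LPS (SE 0.491) and -4.08 with the dual treatment (SE 0.44), each the 20th lowest of 18560 genes in its comparison. Between dual-treated and LPS lungs it was 3.01 (SE 0.592). Because the LPS lungs gave 11 counts in all against 1882 in control, the ratio of pooled levels, 140, had a 95% counting interval (Clopper-Pearson) from 78.3 to 282. The ratio of control to dual-treated lungs was 17, from 13.6 to 21.6, and that of dual-treated to LPS lungs 8.24, from 4.36 to 17.2. Within the control group mouse 1 was below mice 2 and 4 by more than counting error, with intervals from 14.5 to 18 CPM against 32.7 to 37.8 and 34.3 to 39.5 CPM. LPS mouse 7 alone held 7 of the 11 counts of its group.

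In bulk lung, fewer cells of a type and less RNA per cell cannot be told apart, and markers of the cells that can carry *Cyp1a1* moved between the groups. The 10 endothelial markers summed to 4808, 5110 and 5345 CPM in control, 2371, 1963 and 1983 CPM in LPS, and 4333 and 4769 CPM in dual-treated mice. With LPS 8 of the 10 fell, with the dual treatment 1 rose and 1 fell, and against LPS the dual-treated lungs had 8 higher. The call of 1 higher with the dual treatment was lost without control mouse 1 or 2 or dual-treated mouse 2. The 1 that fell became 3 by DESeq2, 2 with no filter, with only the compared groups, without LPS mouse 1 or without LPS mice 6 and 7, and 4 without dual-treated mouse 5. Without LPS mice 6 and 7, 1 marker was higher with LPS and 1 lower in dual-treated than in LPS lungs. In dual-treated against LPS lungs 1 marker was also lower at an unadjusted p under 0.05, by DESeq2, with RLE scaling, with no filter or without LPS mouse 7. *Cdh5*, the cadherin of endothelial junctions, was not among the 8, at 590, 659 and 737 CPM in control, 938, 657 and 642 CPM in LPS and 510 and 590 CPM in dual-treated mice. It had the highest mean CPM of the list over the 8 mice and in LPS, while *Egfl7* had it in control and *Pecam1* in dual-treated lungs. Divided by the adhesion gene *Pecam1*, the *Cyp1a1* level was 0.0262, 0.0518 and 0.0548 in control, 0.000467, 0.000531 and 0.00183 in LPS, and 0.00135 and 0.00221 in dual-treated mice, so that dual-treated and LPS mice overlapped. *Pecam1* was itself the 1 marker that rose with the dual treatment (log2FC 0.60, SE 0.13), and its mean was 657 CPM in control, 228 CPM in LPS and 993 CPM in dual-treated lungs. The other divisors were chosen after seeing the data. Divided by the sum of the 10 markers the level was 0.00337, 0.00689 and 0.00689 in control, 5.01e-05, 5.88e-05 and 0.000197 in LPS, and 0.000335 and 0.000423 in dual-treated mice, with no overlap of the groups. Taken 1 at a time, *Pecam1* included, 5 of the 10 markers gave an overlap of dual-treated and LPS mice, with the order of their means turned for *Ramp2*, and 5 gave none, while control stayed above all other mice with each.

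Epithelial markers did not move as 1 block. The 5 club cell markers summed to 31758, 40346 and 37158 CPM in control, 69383, 60337 and 58432 CPM in LPS, and 24234 and 26622 CPM in dual-treated mice, nearly all of it *Scgb1a1*. With LPS 4 of them rose and 1 fell, with the dual treatment 3 fell, and against LPS 4 were lower. The 4 rises were 2 at an unadjusted p under 0.05 with a fold over 2. The 1 that fell with LPS was not called by that rule either, nor without control mouse 2, control mouse 4 or LPS mouse 6, or without LPS mice 6 and 7. The 8 alveolar type 2 markers, with the highest mean CPM in *Sftpc*, summed to 38901, 32707 and 40869 CPM in control, 29443, 21131 and 17312 CPM in LPS, and 21625 and 31957 CPM in dual-treated mice. Of these 6 fell and 1 rose with LPS, and 3 were above their LPS level in dual-treated lungs. In dual-treated against control lungs edgeR's quasi-likelihood test called 0 of them, while 1 was higher and 1 lower both at an unadjusted p under 0.05 and by DESeq2. Without LPS mice 6 and 7, 2 fell with LPS. Over all alternatives from 2 to 7 fell with LPS, from 0 to 1 rose and 0 to 2 fell with the dual treatment, and from 1 to 5 were higher, 5 with library size alone, and 0 to 1 lower in dual-treated against LPS lungs. No endothelial, club cell or alveolar gene of these lists was at 0 in every mouse. The part of these cells in the *Cyp1a1* levels was not tested.

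*Cyp1a2* (ENSMUSG00000032310, chr9:57584196-57590986, minus strand) lies beside *Cyp1a1* in the opposite orientation and encodes a P450 of liver. It had 0 counts in all 8 mice, which allows a level of up to 0.132 to 0.178 CPM depending on the mouse. Hepatocyte markers were near the floor too: *Serpina1a* was at 0 in every mouse, *Alb* at most 0.892 CPM, and only 3 of the 8 genes passed the expression filter. Their sum was 10.8, 29.9 and 11.7 CPM in control, 3.26, 6.7 and 6.81 CPM in LPS and 16.7 and 8.61 CPM in dual-treated mice, mostly *Cyp2e1*, which lung also expresses. Of the 3 tested genes 2 fell with LPS and 1 with the dual treatment, and against LPS 1 was higher and 1 lower. Without LPS mice 6 and 7 only 1 fell with LPS. Over all alternatives, with from 1 to 7 genes tested, from 1 to 2 fell with LPS and 0 to 1 with the dual treatment, and from 0 to 2 were higher and 0 to 1 lower against LPS.

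*Cyp1b1* (ENSMUSG00000024087, chr17:80008966-80022532, minus strand) encodes the related monooxygenase of stromal and vascular cells. It was at 6.21, 7.23 and 4.51 CPM in control mice 1, 2 and 4, 7.59, 17.7 and 17.9 CPM in LPS mice 1, 6 and 7, and 56.8 and 6.76 CPM in dual-treated mice 2 and 5. All LPS mice lay above all control mice, mouse 1 by little, while the dual-treated mice parted: mouse 2 was the highest of the 8 and mouse 5 sat among the controls. The log2FC was 1.27 with LPS (SE 0.641), 2.41 with the dual treatment (SE 0.69) and 1.14 between dual-treated and LPS lungs (SE 0.67). These last values rest on dual-treated mouse 2: without it they were 0.15 and -1.12, and without mouse 5 they were 3.22 and 1.95. Without LPS mice 6 and 7 the log2FC with LPS was 0.35.

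The 2 expressed Cyp1 genes therefore did not share a pattern. The ratio of *Cyp1b1* to *Cyp1a1* CPM was 0.384, 0.205 and 0.122 in control mice, 64, 153 and 45.9 in LPS mice, and 39.1 and 3.35 in dual-treated mice. Per kb of exon, *Cyp1a1* was above *Cyp1b1* in each control lung and below it in each of the other 5 lungs. Stromal markers stand beside this: the 8 fibroblast genes summed to 4393, 4459 and 4653 CPM in control, 1366, 1426 and 1303 CPM in LPS and 2575 and 3223 CPM in dual-treated mice, with the highest mean CPM in the methyltransferase gene *Inmt*, or in LPS lungs in *Npnt*. Of them 2 rose and 4 fell with LPS, 3 fell with the dual treatment, and against LPS 3 were higher and 1 lower. The 2 rises became 0 with library size alone, without control mouse 4 or without LPS mice 6 and 7, and 1 without any 1 of control mice 1 and 2 and LPS mice 1 and 6. The 3 falls with the dual treatment became 0 without control mouse 2 or dual-treated mouse 2 and 1 without control mouse 1. Over all alternatives from 3 to 6 fell with LPS, and from 2 to 3 were higher and 0 to 2 lower against LPS. The 7 smooth muscle and pericyte genes, with the highest mean CPM in *Pdgfrb*, or in LPS lungs in *Acta2*, summed to 527, 645 and 563 CPM, then 426, 492 and 579 CPM, then 424 and 443 CPM in the same order. Among these 1 rose and 3 fell with LPS, 2 fell with the dual treatment, and against LPS 3 were higher and 3 lower. The rise with LPS was 0 genes with library size alone or without LPS mice 6 and 7 and 2 without control mouse 2, and the 2 falls with the dual treatment were 1 without control mouse 2 or 4 or dual-treated mouse 2, and 4 with no filter, with only the compared groups, without LPS mouse 1 or without LPS mice 6 and 7. Over all alternatives from 2 to 4 fell with LPS, and from 2 to 3 were higher and 1 to 4 lower against LPS. None of the stromal genes was at 0 in every mouse, and their part in the *Cyp1b1* level was not tested.

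**Figure D1:**
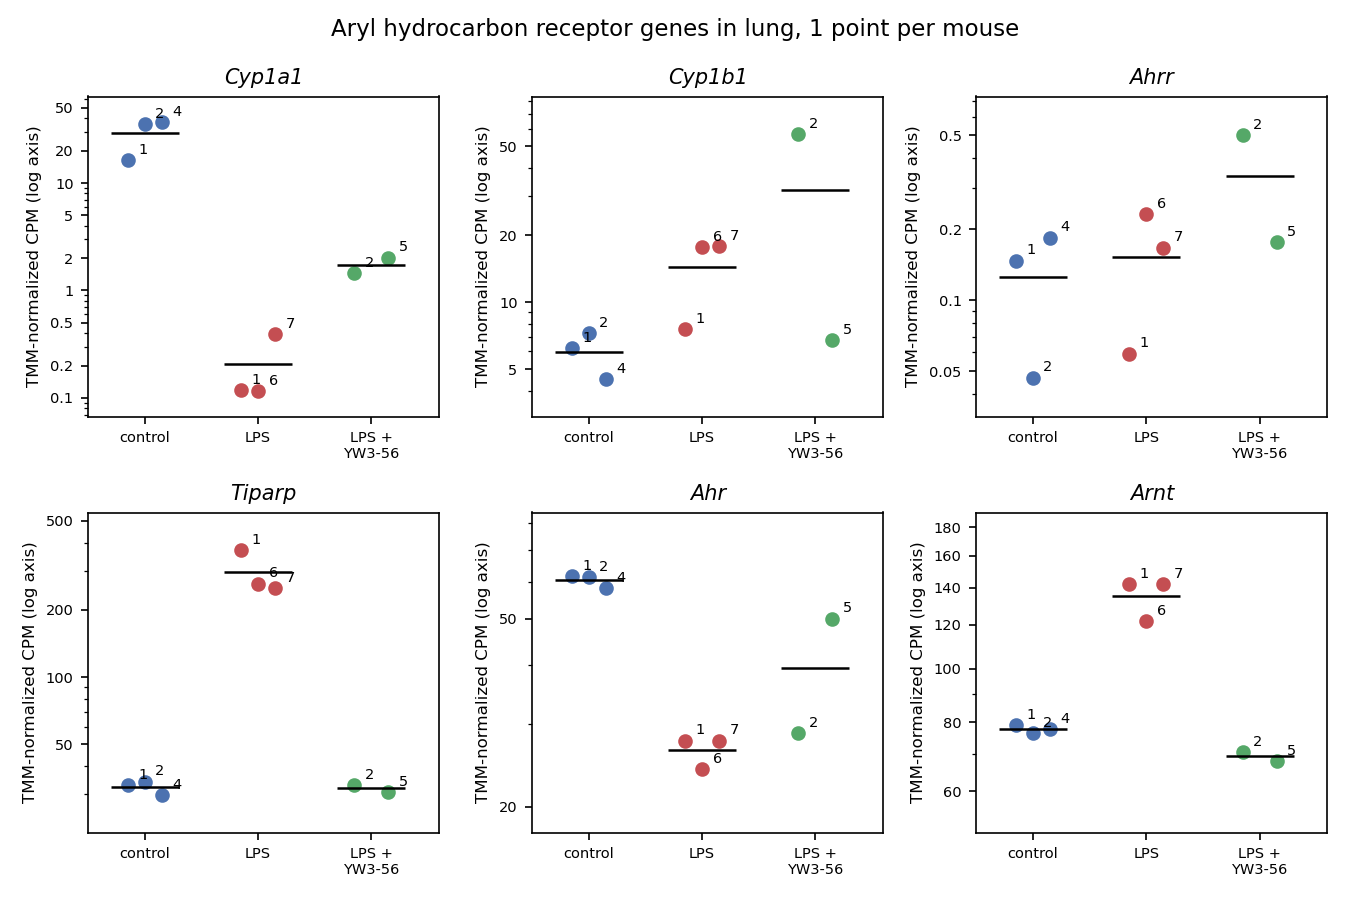
TMM-normalized CPM (log axis) of 6 AHR genes in control, LPS and LPS + YW3-56 lungs, with 1 point per mouse labelled by its number and a line at the group mean. Cyp1a1 is highest in control and lowest in LPS mice, Tiparp and Arnt are highest in LPS mice, and the 2 dual-treated mice differ most in Cyp1b1; Cyp1a2, at 0 counts in all 8 mice, is not drawn.

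*Ahr* (ENSMUSG00000019256, chr12:35547973-35585057, minus strand), the receptor gene, was at 61.7, 61.4 and 58.2 CPM in control, 27.6, 24 and 27.6 CPM in LPS, and 28.6 and 50.1 CPM in dual-treated mice. The control mice were tightly grouped above the rest, and the dual-treated mice spread from just over the LPS mice (mouse 2) to most of the control level (mouse 5). The LPS mean, 26.4 ± 2.09 CPM (SD, n = 3), was 43.6% of the control mean, 60.4 ± 1.97 CPM (SD, n = 3), a log2FC of -1.20 (SE 0.179). With the dual treatment the log2FC was -0.62 against control (SE 0.199) and 0.58 against LPS (SE 0.196). Both turned on single mice: without dual-treated mouse 5 they were -1.11 and 0.09, and without mouse 2 they were -0.30 and 0.90. A long noncoding gene, *Gm48236*, overlaps *Ahr* on the opposite strand and had between 0 and 8 counts per mouse.

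*Arnt* (ENSMUSG00000015522, chr3:95341365-95404551, plus strand) encodes the partner that AHR shares with the hypoxia-inducible factors. Its level was 79.1, 76.5 and 77.6 CPM in control, 142, 122 and 142 CPM in LPS, and 70.6 and 68.1 CPM in dual-treated mice. LPS mice were above both other groups, and the dual-treated mice were slightly below all controls. The log2FC was 0.80 with LPS (SE 0.0903), -0.17 with the dual treatment (SE 0.101) and -0.96 between dual-treated and LPS lungs (SE 0.103). With library size as the only scaling the first was 0.51. A processed pseudogene inside *Arnt*, *Gm42672*, had between 2 and 16 counts per mouse.

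Receptor and partner thus stood in a different proportion in LPS lungs. The ratio of *Arnt* to *Ahr* CPM was 1.28, 1.25 and 1.33 in control mice, 5.15, 5.08 and 5.13 in LPS mice, and 2.47 and 1.36 in dual-treated mice. It varied little within control and within LPS, and dual-treated mouse 5 was close to control. Being a ratio within a library, it does not depend on the scaling.

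*Tiparp* (ENSMUSG00000034640, chr3:65435320-65463365, plus strand) encodes an ADP-ribosyltransferase that is induced by AHR and represses it. The level was 33, 34.1 and 29.7 CPM in control, 370, 262 and 251 CPM in LPS, and 32.9 and 30.7 CPM in dual-treated mice. Every LPS mouse was far above the other 5 mice, and the dual-treated mice lay inside the control range. The log2FC was 3.19 with LPS (SE 0.161), a 9.12-fold higher level, -0.02 with the dual treatment (SE 0.169) and -3.21 between dual-treated and LPS lungs (SE 0.19). *Tiparp* was therefore highest in the lungs where *Cyp1a1* was lowest, and at the control level in dual-treated lungs whose *Cyp1a1* was not.

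*Ahrr* (ENSMUSG00000021575, chr13:74359237-74440462, minus strand), which encodes the AHR repressor, had 3, 1 and 4 counts in control, 1, 4 and 3 counts in LPS, and 11 and 4 counts in dual-treated mice. It failed the expression filter and was at or near the floor in 7 of the 8 mice, so no fold change is given. The highest value, 0.499 CPM in dual-treated mouse 2, was in the mouse with the highest *Cyp1b1*.

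Levels of different genes can be set side by side only per length of exon, as CPM per kb. The length was that of all annotated exons of a gene merged, whichever transcripts the lung makes, and the order depends on it. On that scale the order in control lungs was *Ahr* at 9.77, *Arnt* at 8.32, *Cyp1a1* at 7.53, *Tiparp* at 2.83 and *Cyp1b1* at 0.827 CPM per kb. *Arnt* and *Cyp1a1* did not differ beyond their spread, since the control mice ran from 8.19 to 8.46 and from 4.15 to 9.44 CPM per kb, and the highest *Cyp1a1* value also reached the lowest *Ahr* value, 9.41 CPM per kb. In LPS lungs the order was *Tiparp* at 25.8, *Arnt* at 14.5, *Ahr* at 4.27, *Cyp1b1* at 1.99 and *Cyp1a1* at 0.0534 CPM per kb. No 2 neighbours in it overlapped between mice. In dual-treated lungs *Arnt*, *Ahr*, *Cyp1b1*, *Tiparp* and *Cyp1a1* were at 7.42, 6.36, 4.39, 2.79 and 0.445 CPM per kb. There only *Cyp1a1* did not overlap its neighbour, and *Cyp1b1* ran from 0.935 to 7.85 CPM per kb.

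The promoters were searched for the core of the xenobiotic response element, TNGCGTG, on both strands of GRCm39, because the reported AHR targets among the 7 genes differed in direction. Windows ran from 1500 bases before to 50 bases after the canonical start of each protein-coding gene. In them 16.6% of 21770 promoters held at least 1 match, and in the shorter window from 250 bases before the start 6.07% did. *Cyp1a1* held 6 matches, 3 of them in the shorter window, and was the only gene of the 21770 with as many, or 0.00459%. *Cyp1b1* and *Ahrr* held 2 each, where 1.9% of promoters held 2 or more, and *Cyp1a2*, *Ahr*, *Tiparp* and *Arnt* held none in this window. The canonical start of *Cyp1a1* used here is base 57604142, inside the annotated gene. The GCGTG within the motif is also a form of the hypoxia response element, so the letters do not name a factor. A match describes the sequence and is not a bound site, and its absence says only that these letters are not in the window. Each match is given with 10 bases on either side, 5′ to 3′ on the strand that holds it, with the motif in capitals and named by the distance in bases from the gene start to its upstream end.
Cyp1a1 -630 (chr9:57603502-57603528, minus strand): catctgaactTGGCGTGtctaactcaa
Cyp1a1 -454 (chr9:57603678-57603704, minus strand): agggccgggtTTGCGTGcgatgctcgg
Cyp1a1 -309 (chr9:57603823-57603849, plus strand): ctcccccagcTAGCGTGacagcactgg
Cyp1a1 -232 (chr9:57603900-57603926, minus strand): tgccccggagTTGCGTGagaagagcct
Cyp1a1 -143 (chr9:57603989-57604015, minus strand): ttcctgaggcTAGCGTGcgtaagcctg
Cyp1a1 -72 (chr9:57604060-57604086, plus strand): tcctgctgtcTCGCGTGgatccttcct
Cyp1b1 -831 (chr17:80023347-80023373, plus strand): gagctgtgccTTGCGTGcgccgcttct
Cyp1b1 -812 (chr17:80023328-80023354, plus strand): cgcctcccccTTGCGTGcggagctgtg
Ahrr -361 (chr13:74440807-74440833, plus strand): aaccaagactTAGCGTGttcctccttt
Ahrr -17 (chr13:74440463-74440489, minus strand): gcggggcggcTCGCGTGctggggtggg

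The stretches of the *Cyp1b1* matches overlap each other, and 2 of the 6 matches at *Cyp1a1* and 1 of the 2 at *Ahrr* lie in the orientation of the gene.

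Other genes of the pathway were taken in 5 lists of 55 genes, of which 49 passed the expression filter. With LPS 18 of the 49 rose and 12 fell, with the dual treatment 3 rose and 6 fell, and in dual-treated against LPS lungs 12 were higher and 20 lower. These numbers stand beside the shares of all tested genes given above, and nothing particular to the lists is read from them. Genes named from each list are among those with its highest mean CPM and those with the largest called change.

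The list nearest to the enzymes themselves held the 19 other reported AHR targets. With LPS 11 of the 19 rose and 1 fell, with a median log2FC of 0.64. The 1 that fell became 2 with no filter or without LPS mouse 7. In dual-treated lungs 3 rose against control and edgeR's quasi-likelihood test called 0 lower. At an unadjusted p under 0.05, 5 were higher and 3 lower, and by DESeq2 3 were higher and 3 lower. The median log2FC there was 0.46, or 0.26 with the genes at 0 in a group, *Il22* and *Gsta1*, left at their bounds or out where no bound exists. Against LPS 4 were higher and 10 lower, with a median of -0.67. These counts were not firm: the 11 became 5 when scaled by library size alone, 7 of 13 tested with at least 10 counts in every library, and 7 without control mouse 1, control mouse 4, LPS mouse 7 or LPS mice 6 and 7, and the 3 became 1 without control mouse 2, control mouse 4 or dual-treated mouse 2. The 0 lower became 2 with no filter, with only the compared groups (17 tested), without control mouse 1 or without LPS mice 6 and 7, and 1 with the filter of 10 counts or without LPS mouse 1, LPS mouse 7 or dual-treated mouse 5. Against LPS, the 4 became 0, 2, 2 and 1 without LPS mouse 1, LPS mouse 6, dual-treated mouse 2 and dual-treated mouse 5, and the 10 became 5 with library size alone and 6 without dual-treated mouse 5.

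*Slc7a5*, a subunit of the carrier that imports tryptophan and other large amino acids, was at 7.54, 7.32 and 8.69 CPM in control, 70.2, 66.4 and 59 CPM in LPS, and 31.3 and 13.4 CPM in dual-treated mice. The 3 groups did not overlap. It rose with LPS by a log2FC of 3.05 (SE 0.271, Benjamini-Hochberg adjusted p = 1.02e-05 in the edgeR quasi-likelihood fit). With the dual treatment it rose by 1.51 (SE 0.285, Benjamini-Hochberg adjusted p = 0.00767 in the same edgeR fit), a value that was 0.74 without mouse 2 and 1.97 without mouse 5. *Nfe2l2*, the master regulator of antioxidant genes, was at 204, 210 and 209 CPM in control, 403, 341 and 321 CPM in LPS, and 143 and 174 CPM in dual-treated mice. It rose with LPS, with a log2FC of 0.77 (SE 0.119, Benjamini-Hochberg adjusted p = 0.000323 in the edgeR quasi-likelihood fit). The dual-treated mice were below all controls, with a log2FC of -0.39 (SE 0.134) that did not pass this test but did with DESeq2, with only the compared groups in the fit, and without LPS mouse 1, dual-treated mouse 5 or LPS mice 6 and 7.

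*Il22*, a cytokine gene of lymphoid cells, had 0 counts in all control mice, 749, 85 and 141 counts in LPS mice 1, 6 and 7, and 0 and 1 counts in dual-treated mice. Set against a floor of 3 counts per library, its LPS level was at least 134-fold higher than in control (Benjamini-Hochberg adjusted p = 0.000647 in the edgeR quasi-likelihood fit). LPS mouse 1 held most of the counts, and without it the level was at least 45-fold higher. *Xdh*, the gene of xanthine dehydrogenase, was at 629, 534 and 545 CPM in control, 762, 764 and 908 CPM in LPS, and 535 and 482 CPM in dual-treated mice. All LPS mice were above the others, and the rise with LPS had a log2FC of 0.51 (SE 0.122) that no longer passed the test when scaled by library size alone. *Selenbp1*, with the highest mean CPM of the 19, stayed between 1473 and 1701 CPM in all 8 mice, and *Cyp2s1*, a P450 of epithelia, between 102 and 183 CPM, and neither was called in any of the 3 comparisons. *Selenbp1* passed between dual-treated and LPS lungs with library size alone, and *Cyp2s1* with LPS without LPS mouse 7.

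*Scin*, which encodes an actin-severing protein, was at 0.979, 1.83 and 1.61 CPM in control, 1.31, 1.67 and 2.51 CPM in LPS, and 3.54 and 4.7 CPM in dual-treated mice. The dual-treated mice were the highest, with a log2FC of 1.48 against control (SE 0.37, Benjamini-Hochberg adjusted p = 0.0255 in the edgeR quasi-likelihood fit), a call lost when any 1 of the control or dual-treated mice was left out. *Serpinb2*, a protease inhibitor gene, spread widely, at 2.69, 2.3 and 15 CPM in control, 0.475, 2.08 and 4.91 CPM in LPS, and 7.58 and 18.6 CPM in dual-treated mice. Dual-treated lungs held more of it than LPS lungs, by a log2FC of 2.39 (SE 0.919), a call lost with DESeq2, with RLE scaling and without any 1 of LPS mouse 1, LPS mouse 6 or dual-treated mouse 5. The *Ugt1a* genes of the list share exons, so how their counts were divided is uncertain.

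Neutrophil markers stand beside the inflammatory genes of these lists. The 9 of them summed to 216, 119 and 126 CPM in control, 2142, 2963 and 1854 CPM in LPS, and 1716 and 2388 CPM in dual-treated mice, and *S100a9* had the highest mean CPM. All 9 rose with LPS and 6 with the dual treatment, and against LPS 4 were higher and 3 lower. The 4 became 1 without dual-treated mouse 5 or without LPS mice 6 and 7, and the 3 became 0 with at least 10 counts in every library, where 6 genes were tested. None was at 0 in every mouse, and the part of neutrophils in any value here was not tested.

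Enzymes that make or remove tryptophan-derived AHR ligands formed a list of 12, of which 8 were tested. With LPS 2 rose and 3 fell, with the dual treatment 1 fell, and against LPS 2 were higher and 2 lower, and the median log2FC was -0.03, -0.14 and 0.24. Over all alternatives, with from 6 to 12 genes tested, the numbers higher and lower ran from 2 to 3 and 1 to 4 with LPS, stayed at 0 and ran from 0 to 1 with the dual treatment, and ran from 1 to 2 and 2 to 3 against LPS. *Ido1*, the inducible first enzyme of the kynurenine pathway, was at 0.538, 0.986 and 0.46 CPM in control, 59.3, 28.8 and 25.7 CPM in LPS, and 0.454 and 1.32 CPM in dual-treated mice. All LPS mice were far above the rest, and the dual-treated mice overlapped the controls. The rise with LPS had a log2FC of 5.83 (SE 0.484, Benjamini-Hochberg adjusted p = 6.96e-06 in the edgeR quasi-likelihood fit), and dual-treated lungs were lower than LPS lungs by a log2FC of -5.40 (SE 0.555).

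*Afmid*, the formamidase of the next step, was at 2.84, 2.49 and 2.39 CPM in control, 8.01, 6.29 and 9.88 CPM in LPS, and 2 and 2.06 CPM in dual-treated mice. It rose with LPS by a log2FC of 1.65 (SE 0.225). Of the later enzymes tested, *Kmo*, *Kynu* and *Kyat1* fell with LPS, and *Haao* and *Kyat3* were not called. *Kynu* and *Haao* stand outside the naming rule and were added after seeing the data. *Kmo*, whose product hydroxylates kynurenine, was at 3.03, 2.68 and 3.82 CPM in control, 0.593, 0.52 and 0.502 CPM in LPS, and 1.23 and 0.351 CPM in dual-treated mice. It fell with LPS, with a log2FC of -2.55 (SE 0.446, Benjamini-Hochberg adjusted p = 0.000729 in the edgeR quasi-likelihood fit). Its log2FC of -2.01 with the dual treatment (SE 0.486) lost its call without any 1 control mouse or dual-treated mouse 5, and was -1.40 without the latter. The aminotransferase gene *Kyat1* went from 17.8, 18.9 and 19.8 CPM in control to 5.4, 5.26 and 10.4 CPM in LPS, with 16.5 and 15.9 CPM in dual-treated mice. It fell with LPS by a log2FC of -1.42 (SE 0.243). Its relative *Kyat3* was between 6.01 and 12.4 CPM and was called only between dual-treated and LPS lungs when dual-treated mouse 2 was left out.

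The electron donors of P450 enzymes were 4 genes. *Por*, the reductase that passes electrons to every microsomal P450, was at 266, 317 and 303 CPM in control, 1226, 1149 and 1448 CPM in LPS, and 469 and 269 CPM in dual-treated mice. LPS mice were above all others, and dual-treated mouse 2 was above mouse 5, which lay in the control range. *Por* rose with LPS by a log2FC of 2.11 (SE 0.202, Benjamini-Hochberg adjusted p = 1.6e-05 in the edgeR quasi-likelihood fit), while the *Cyp1a1* level was lowest in the same lungs. The other donors were not higher: *Cyb5r3*, the cytochrome b5 reductase, was at 450, 408 and 434 CPM in control, 268, 215 and 183 CPM in LPS, and 341 and 461 CPM in dual-treated mice. It fell with LPS by a log2FC of -0.96 (SE 0.161), *Cyb5b* fell by -0.85 (SE 0.0923), and *Cyb5a*, between 202 and 261 CPM in all mice, was called only with library size alone. In dual-treated against control lungs edgeR's quasi-likelihood test called 0 of the 4, while 1 was lower both at an unadjusted p under 0.05 and by DESeq2. Over the 4 genes the median log2FC was -0.51 with LPS, -0.12 with the dual treatment and 0.28 between dual-treated and LPS lungs, where 2 were higher and 1 lower. The alternatives gave from 0 to 3 lower with LPS, 0 to 1 higher and 0 to 1 lower with the dual treatment, and 0 to 3 higher against LPS.

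**Figure D2:**
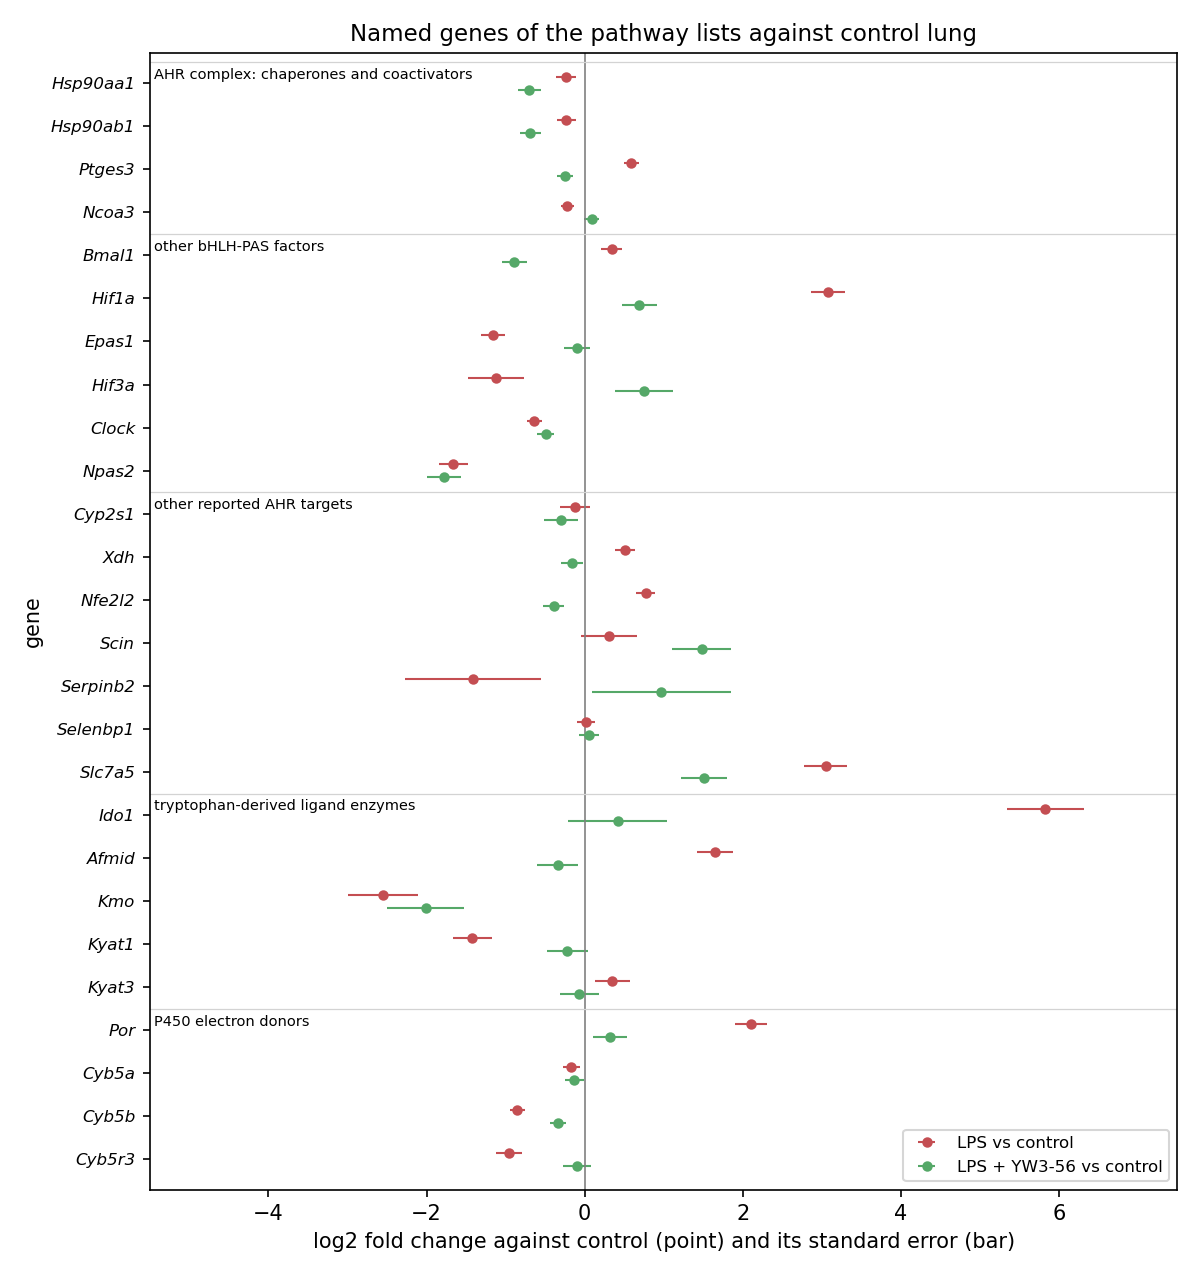
Log2 fold change against control (x axis) with its standard error (bars) for 26 named genes of the 5 pathway lists (rows), in LPS (red) and LPS + YW3-56 (green) lungs; Il22, at 0 in control, is left out. Hif1a, Slc7a5, Ido1 and Por lie far to the right with LPS, at 3.08, 3.05, 5.83 and 2.11, and nearer to 0 with the dual treatment.

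Among the chaperones and coactivators of AHR, all 7 genes were tested. With LPS 1 rose and 2 fell, with the dual treatment 2 fell, and against LPS 2 were higher and 4 lower, and the median log2FC was -0.22, -0.25 and -0.34. The 2 falls with LPS were 1 without any 1 of the control mice or LPS mouse 6 or 7, or without both of the latter, and 5 with library size alone. Against LPS, the 2 higher were 1 without dual-treated mouse 5, and the 4 lower were 2 without dual-treated mouse 2 and 1 with library size alone. The 2 that fell with the dual treatment encode heat shock protein 90 itself. *Hsp90ab1* was at 1030, 1039 and 1205 CPM in control, 1012, 914 and 865 CPM in LPS, and 659 and 691 CPM in dual-treated mice. *Hsp90aa1* was at 392, 424 and 423 CPM in control, 414, 326 and 306 CPM in LPS, and 242 and 266 CPM in dual-treated mice. Both were lowest in the dual-treated mice, by a log2FC of -0.69 (SE 0.133) and -0.70 (SE 0.146) against control, with a Benjamini-Hochberg adjusted p = 0.00839 and 0.0118 in the edgeR quasi-likelihood fit. Without dual-treated mouse 2 the call of *Hsp90aa1* was lost.

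*Ptges3*, which encodes the co-chaperone p23, was at 104, 98.2 and 99.9 CPM in control, 168, 148 and 139 CPM in LPS, and 86.2 and 82.7 CPM in dual-treated mice, and rose with LPS by a log2FC of 0.59 (SE 0.0946). The coactivator gene *Ncoa3* was at 103, 95.1 and 101 CPM in control, 82.6, 88.4 and 85.5 CPM in LPS, and 102 and 111 CPM in dual-treated mice. Its log2FC of -0.22 with LPS (SE 0.0839, Benjamini-Hochberg adjusted p = 0.04 in the edgeR quasi-likelihood fit) lost its call with DESeq2, RLE scaling, no filter, or without any 1 control or LPS mouse.

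AHR and ARNT belong to the bHLH-PAS family of transcription factors, and 11 of 13 further members were tested. With LPS 3 rose and 4 fell, with the dual treatment 3 fell, and against LPS 2 were higher and 3 lower, and the median log2FC was -0.84, -0.44 and 0.14. *Sim2*, added after seeing the data, was 1 of the 3 that rose and of the 3 lower against LPS. It had 2, 7 and 0 counts in control, 0, 47 and 165 in LPS mice 1, 6 and 7, and 1 and 0 in dual-treated mice. Its counts in LPS lungs thus came from mice 6 and 7, which stood apart. With from 6 to 13 genes tested over all alternatives, the numbers higher and lower ran from 1 to 4 and 3 to 6 with LPS, 0 to 1 and 1 to 3 with the dual treatment, and 2 to 3 and 2 to 3 against LPS. The hypoxia factors use ARNT as their partner as well. *Hif1a* was at 41.1, 44.5 and 46.4 CPM in control, 448, 336 and 329 CPM in LPS, and 90.2 and 51.3 CPM in dual-treated mice. It rose with LPS by a log2FC of 3.08 (SE 0.215, Benjamini-Hochberg adjusted p = 2.78e-06 in the edgeR quasi-likelihood fit), while its 0.69 with the dual treatment (SE 0.222) did not pass that test but did with DESeq2 and in some other settings.

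*Epas1*, the hypoxia factor abundant in lung endothelium, was at 2671, 2797 and 2945 CPM in control, 1361, 1081 and 1332 CPM in LPS, and 2264 and 2958 CPM in dual-treated mice. Its fall with LPS, a log2FC of -1.16 (SE 0.151), ran opposite to *Hif1a*, and the dual-treated mice overlapped the controls. *Hif3a* was at 12.5, 7.65 and 8.97 CPM in control, 2.73, 5.66 and 4.97 CPM in LPS, and 22.3 and 10.4 CPM in dual-treated mice. Its log2FC of -1.12 with LPS (SE 0.352) lost its call without control mouse 1 or LPS mouse 1.

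The family also holds genes of the circadian clock. Of these *Npas2*, *Clock* and *Bmal1* were called lower in dual-treated than in control lungs, where 7.02% of all tested genes were, and nothing is read from their number. *Bmal2*, added after seeing the data, was not called, at 1.71, 1.45 and 2.48 CPM in control and 2 and 1.49 CPM in dual-treated mice. *Npas2* was at 9.93, 11 and 12.6 CPM in control, 3.32, 3.47 and 3.8 CPM in LPS, and 3.59 and 2.9 CPM in dual-treated mice. It fell by a log2FC of -1.66 with LPS (SE 0.185) and of -1.78 with the dual treatment (SE 0.213), with a Benjamini-Hochberg adjusted p = 4.01e-05 and 0.000753 in the edgeR quasi-likelihood fit. *Clock* was at 87, 98.7 and 89.5 CPM in control, 62.8, 53.1 and 61.1 CPM in LPS, and 65.8 and 64.5 CPM in dual-treated mice, with a log2FC of -0.64 (SE 0.095) and -0.49 (SE 0.107). Both falls were called, the second not without control mouse 2. *Bmal1* was at 27.6, 27.3 and 30.6 CPM in control, 39.6, 32 and 36.5 CPM in LPS, and 17.8 and 13 CPM in dual-treated mice. It fell with the dual treatment by a log2FC of -0.89 (SE 0.159), and its 0.34 with LPS (SE 0.137) was not called. It was called with DESeq2, RLE scaling or only the compared groups and without LPS mouse 6 or either dual-treated mouse, and was 0.05 with library size alone.

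The genes most like *Cyp1a1* across the mice were sought among tested genes with a mean of at least 1 CPM, by Pearson's r of log2 CPM over the 8 libraries. The 5 highest, each with r = 0.99, were *Ryk*, *Pik3ca*, *Plxna3*, *Aass* and *Fam210b*. The choice of genes was not firm: of these 5, 3 were still among the 5 highest with a prior count of 0.5, none without LPS mouse 7, and from 1 to 4 without any other mouse. All ran in the same order of groups as *Cyp1a1* but over a smaller range. *Aass*, which encodes an enzyme of lysine breakdown, was at 4.06, 5.44 and 6.35 CPM in control, 0.415, 0.578 and 0.893 CPM in LPS, and 1.72 and 1.54 CPM in dual-treated mice. *Plxna3*, a semaphorin receptor gene, was at 8.37, 11.1 and 10.4 CPM in control, 1.66, 1.79 and 2.68 CPM in LPS, and 3.81 and 5.05 CPM in dual-treated mice. Like *Cyp1a1*, both were lower in control mouse 1 than in mice 2 and 4. The 5 genes were chosen for their likeness over these same mice. Neither the shared order of groups nor the lower control mouse 1 is therefore a separate result. Of the other AHR genes r with *Cyp1a1* was 0.93 for *Ahr*, -0.50 for *Cyp1b1*, -0.84 for *Tiparp* and -0.73 for *Arnt*. These r describe the distance between 3 groups of libraries that share a treatment more than they describe single mice, and no p is given.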

How the data were processed

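Lung RNA of 8 mice was measured as gene counts. According to the submitters' processing notes and methods, the authors checked reads with FastQC 0.11.9, trimmed them with Trim Galore, aligned them to GRCm39 with HISAT2 2.2.1, counted them with featureCounts 2.0.1 and deposited raw counts per mouse. The annotation release, strand setting and handling of multimapped reads are not given in the sources used here, so overlapping, antisense and paralogous genes are uncertain.

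Of 55416 identifiers, 54749 matched GENCODE vM39, which gave symbols, exon lengths and canonical starts on GRCm39, and the other 667 held 0.0533% of counts. In R 4.3.3 with edgeR 4.0.16, counts were TMM-scaled, filtered by filterByExpr and fitted by quasi-likelihood over all 8 mice with 1 group factor (5 residual degrees of freedom). Benjamini-Hochberg adjustment covered the 18560 tested genes. Standard errors of log2 fold changes came from the fold change and its F statistic. The procedure was tested on simulated counts.

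The members, the 5 pathway lists and the 9 marker lists were chosen with earlier results of these data known. Named genes were the 7 members, the 4 genes of each pathway list with the highest mean CPM, up to 2 per list and comparison with the largest called change (mean of at least 1 CPM, no overlap between groups), the gene of each marker list with the highest mean CPM, markers at 0, and the 5 genes most like *Cyp1a1* (prior count 2). Of the genes this rule takes, 1 is not reported here. Other genes named are said to be so or define a list. Alternatives were DESeq2 1.42.0, library size or RLE scaling, no filter or 10 counts in every library, only the compared groups, each mouse left out, LPS mice 6 and 7 left out, an unadjusted p under 0.05 with a fold over 2, and a prior count of 0.5.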

Additional observations from a re-analysis of the deposited data

How the results depend on the processing

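Of the values of the 28 named pathway genes under the alternatives, 1148 kept their direction and side of the threshold, 38 lost a call and 35 gained one. The other 28 turned direction, none of them called on either side. With a mouse left out, log2FC that turned ranged with LPS from -0.03 to 0.07 for *Selenbp1*, -0.38 to 0.06 for *Cyp2s1* and -2.36 to 0.01 for *Serpinb2*. With the dual treatment they ranged from -0.00 to 0.12 for *Ncoa3*, -0.34 to 0.05 for *Epas1*, -0.57 to 0.96 for *Ido1*, -0.48 to 0.21 for *Kyat3*, -0.17 to 0.64 for *Por* and -0.37 to 0.07 for *Cyb5r3*. Against LPS they ranged from -0.01 to 0.10 for *Selenbp1*, -0.35 to 0.09 for *Cyp2s1*, -0.63 to 1.16 for *Kmo* and -0.09 to 0.12 for *Cyb5a*. In other settings, *Selenbp1* with LPS was -0.26 with library size alone and -0.01 with no filter or without LPS mice 6 and 7. Leaving out those mice also gave 0.01 for *Hsp90aa1* and -0.17 for *Scin*. Against LPS, library size alone gave 0.20 for *Npas2* and 0.14 for *Cyp2s1*, DESeq2 and RLE scaling gave -0.01 for *Selenbp1* and *Cyb5a*, and leaving out LPS mice 6 and 7 gave -0.02 for *Cyb5a*. Counts within single lists stayed within 1.5 times the reported one in 1147 instances and moved further in 197.

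With an unadjusted p under 0.05 and a fold over 2, the pathway lists had 7 lower genes with LPS, 5 higher with the dual treatment, and 7 higher and 13 lower in dual-treated against LPS lungs. DESeq2 called 10 lower with the dual treatment. Scaling by library size alone gave 12 lower in dual-treated against LPS lungs. In LPS against control it gave log2FC of -1.48 for *Ahr*, 2.89 for *Tiparp* and 0.51 for *Arnt*, and in dual-treated lungs -0.13 for *Arnt* against control, and -2.87 for *Tiparp* and -0.64 for *Arnt* against LPS. Without LPS mice 6 and 7, the lone LPS mouse being assumed to vary like the other groups, log2FC with LPS were -7.88 for *Cyp1a1*, 0.35 for *Cyp1b1* and 3.52 for *Tiparp*, and between dual-treated and LPS lungs 3.80 for *Cyp1a1* and -3.55 for *Tiparp*. The cause was not tested.

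With each mouse left out in turn, pathway calls with LPS ranged from 13 to 18 higher and 10 to 13 lower, with the dual treatment from 1 to 5 and 4 to 8, and against LPS from 7 to 13 and 15 to 20. *Cyp1a1* log2FC ranged from -7.89 to -6.79 with LPS, -4.37 to -3.89 with the dual treatment and 2.71 to 3.81 between the treatments. *Cyp1b1* ranged from 1.09 to 1.58, 0.15 to 3.22 and -1.12 to 1.95 in the same order, *Ahr* from -1.22 to -1.12, -1.11 to -0.30 and 0.09 to 0.90, *Tiparp* from 3.00 to 3.30, -0.10 to 0.02 and -3.32 to -3.02, and *Arnt* from 0.77 to 0.87, -0.22 to -0.15 and -1.04 to -0.93. Over all genes, calls with the dual treatment numbered 2997, but 1788, 1553 and 1710 without control mouse 1, 2 or 4 and 1220 without dual-treated mouse 2. With library size alone the lower calls between dual-treated and LPS lungs were 3225 in place of 5085. The lowest r with *Cyp1a1* of the 5 named genes was 0.99 in each setting, which does not show that they stayed the most alike: from 0 to 4 of them did with a mouse left out. With divisors chosen after seeing the data, the log2 ratio of *Cyp1a1* per endothelial marker in dual-treated over LPS lungs, 1.17 with *Pecam1*, was 2.18 with the sum of the markers, ranged up to 3.71 with *Cdh5* and was reversed, at -0.52, with *Ramp2*.

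No paired analysis was possible. The mice were divided at random into the groups, and a mouse number is a label within its group, so equal numbers do not mark a pair. The p-values set the group differences against the spread of mice within groups, pooled over the 8 mice, 2 of them dual-treated. DMSO, named for control and dual-treated but not LPS mice, cannot be told apart from LPS between LPS and control lungs. Between dual-treated and LPS lungs it cannot be told apart from the drug. In dual-treated against control lungs LPS and drug cannot be told apart. Depth limited *Cyp1a1* in LPS lungs, *Ahrr* and *Cyp1a2*.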
